A study of Mus musculus with 2 samples.

Results

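The nuclear genes of the mitochondrial respiratory chain were examined in RNA pulled down with tagged ribosomes from mouse cerebral cortex. Members were taken by symbol: every row beginning with Nduf, Uqcr, Cox4 to Cox8 or Atp5, leaving out names that hold -ps. This gave 88 genes of 32531 listed. By complex they comprised 36 subunits of complex I, 8 assembly factors of complex I, 8 genes of complex III, 20 of complex IV and 16 of complex V, the ATP synthase. The symbols are the older mouse names, so that Atp5a1, Atp5b and Atp5g3, for example, are the genes now called Atp5f1a, Atp5f1b and Atp5mc3.

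The study holds 1 group, with 2 immunopurified libraries, IP1 and IP2. Both came from adult untreated mice of the line Gdnf-EGFP/Rpl10a (ES2243), in which a ribosomal protein with a green fluorescent tag follows the regulatory sequences of Gdnf, and the series text names pericytes of the cortex as the profiled cells. Ribosomes are captured from any cell in which that transgene is active, whatever its type. The labels do not say whether the libraries came from separate animals, so the spread between them may be technical, and no unpurified cortex or other genotype was compared here.

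The respiratory chain passes electrons from NADH, through complex I, and from succinate, through complex II, to complex III. Cytochrome c carries them on to complex IV, which reduces oxygen, and complex V uses the resulting proton gradient to make ATP. Most subunits are encoded in the nucleus, translated on cytosolic ribosomes and imported, whereas the catalytic cores of complexes I, III and IV and part of complex V also need subunits from mitochondrial DNA. Some nuclear subunits have alternative isoforms. Cox4i2 replaces Cox4i1 in complex IV and Ndufa4l2 is a paralog of Ndufa4. Both are known to be induced at low oxygen, and both are listed among marker genes of brain pericytes.

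IP1 held 65200231 reads counted in genes and IP2 72732502. Levels are counts per 1000000 of these totals (CPM), not divided by transcript length. Lengths were not used here, so a level can be set against the same gene in the other library but the order of levels between genes is not read. A gene with 0 reads could have held up to 3, equal to 0.046 CPM for IP1 and 0.041 CPM for IP2. Reads aligned to several places made up 31.2% of listed reads in IP1 and 31.5% in IP2 and were not assigned to any gene. Pericyte markers were present, with 6 of 6 at 10 CPM or more in both libraries (summed level 1173 CPM in IP1, 1788 CPM in IP2), and so were 6 of 6 pan-neuronal markers (14901 and 13051 CPM) and 5 of 6 astrocyte markers (1769.7 and 2800.1 CPM). Of 5 endothelial markers, 0 reached that level (17.3 and 24.3 CPM), and Cldn5 had 5 reads in IP1 and 0 in IP2. Levels of the chain genes therefore cannot be assigned to pericytes, and in such bulk RNA fewer cells of a type and less RNA per cell cannot be told apart.

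The 88 genes together took 541212 reads in IP1, or 0.830% of gene counts. They took 513560 reads in IP2, or 0.706%. Exact 95% intervals were 0.828 to 0.832% for IP1 and 0.704 to 0.708% for IP2, and these, like all others here, cover counting error only. Complex V held 54.9% of these reads in IP1 and 54.4% in IP2, with Atp5b alone at 29.0% and 28.6%. Complex I held 22.6% and 23.3%, complex IV 13.3% and 13.2%, complex III 6.43% and 6.07%, and the assembly factors of complex I 2.67% and 3.03%. The division among complexes was thus nearly the same in the 2 libraries. At least 10 CPM in each library was found for 73 of the 88, and at least 1 CPM for 82. Over all listed genes, 28.3% reached 10 CPM in both, and 47.0% of the 19580 genes with a read in either library.

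**Figure D1:**
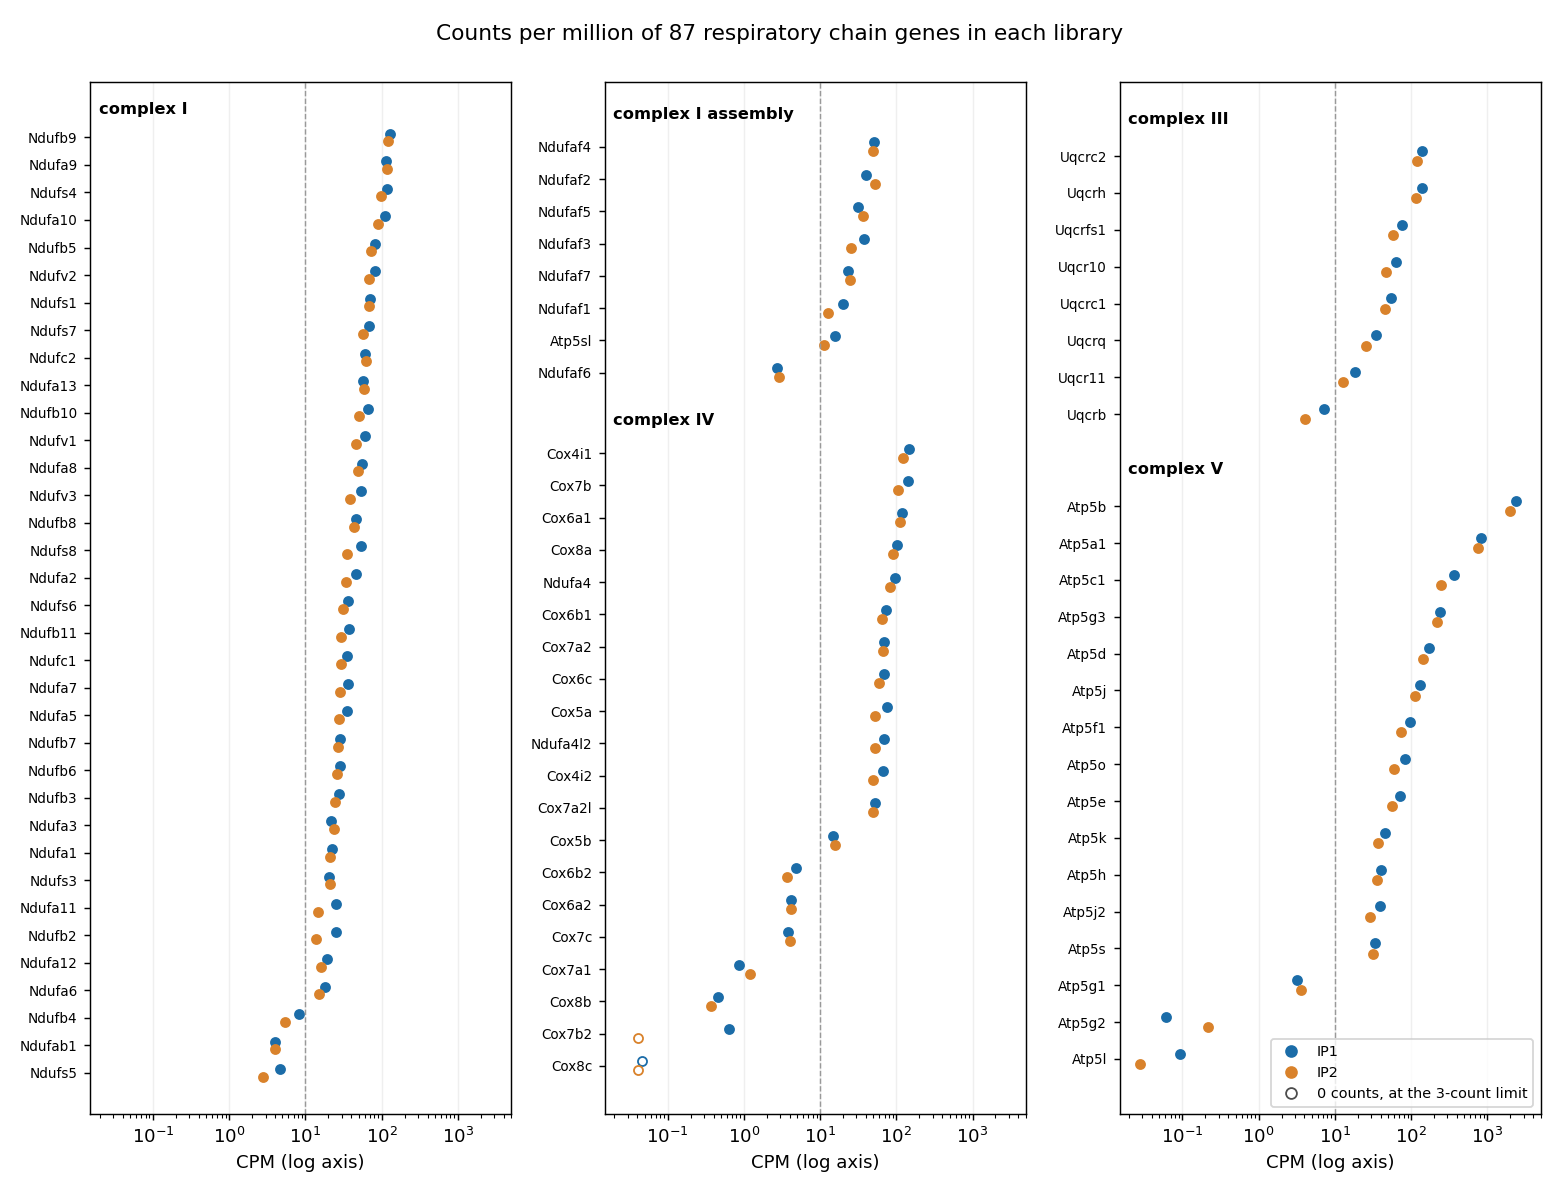
Level of 87 of the 88 genes in CPM, on a log axis, by complex, with 1 point for IP1 and 1 for IP2. The dashed line marks 10 CPM. Open points are libraries with 0 counts, drawn at the level of 3 counts. For 72 genes shown both points lie right of the line, and Cox8c had no read in either library.

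Complex I takes electrons from NADH through a chain of iron-sulfur clusters. Its nuclear core subunits, which include those that carry the flavin and the clusters, were above 10 CPM in both libraries. Among them were Ndufv2 (82.8 CPM in IP1, 67.6 CPM in IP2), Ndufs1 (70.4 and 68.4 CPM), Ndufs7 (68.7 and 57.3 CPM), Ndufv1 (59.8 and 46.4 CPM), Ndufs8 (54.1 and 35.4 CPM) and Ndufs3 (20.3 and 20.9 CPM). Ndufs1 and Ndufs3 were within 1.03-fold between the libraries, while Ndufs8 was 1.53-fold higher in IP1.

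The other 29 subunits of complex I are accessory proteins that surround the core, and 26 of them reached 10 CPM in both libraries. Ndufb9 (130.4 CPM in IP1, 123 CPM in IP2), Ndufa9 (113 and 118 CPM), Ndufs4 (117 and 97.4 CPM) and Ndufa10 (111 and 90.7 CPM) had the highest counts. Ndufs4 is needed for a late step in assembly of the complex, and its loss gives a Leigh-like disease in mice. Below 10 CPM were Ndufb4 (8.22 and 5.43 CPM), Ndufs5 (4.69 and 2.75 CPM) and Ndufab1 (3.96 and 3.97 CPM), the mitochondrial acyl carrier protein. RefSeq lists a pseudogene named after Ndufs5 and another after Ndufab1, but none so named after Ndufb4. The part of reads shared with such copies in these counts was not tested.

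The assembly factors are not part of the finished complex I. Ndufaf4 (50.6 CPM in IP1, 49.3 CPM in IP2), Ndufaf2 (39.6 and 51.8 CPM), Ndufaf5 (31.5 and 36.1 CPM) and Ndufaf3 (38.1 and 25.1 CPM) had the most reads among them. Ndufaf7 (23.4 and 24.6 CPM), a methyltransferase, Ndufaf1 (19.9 and 12.8 CPM) and Atp5sl (15.5 and 11.4 CPM) followed. Atp5sl, now called Dmac2, bears an ATP synthase name but is known as a factor for the distal membrane arm of complex I. Ndufaf6 was at 2.73 and 2.93 CPM.

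Complex III passes electrons from ubiquinol to cytochrome c. Its core proteins Uqcrc2 (140.0 CPM in IP1, 119.7 CPM in IP2) and Uqcrc1 (54.9 and 45.9 CPM), its hinge protein Uqcrh (138 and 115 CPM) and the Rieske iron-sulfur protein Uqcrfs1 (76.4 and 58.0 CPM) were all above 10 CPM. The small subunits were Uqcr10 (63.3 and 47.1 CPM), Uqcrq (34.8 and 25.7 CPM), Uqcr11 (18.4 and 12.8 CPM) and Uqcrb (7.32 and 4.06 CPM). All 7 genes with a mean of 10 CPM or more were higher in IP1, against 53.3% of all genes at that mean. Uqcrb, below that mean, was also higher in IP1.

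Complex IV, cytochrome c oxidase, surrounds its mitochondrially encoded core with small nuclear subunits. The broadly used forms were Cox4i1 (148 CPM in IP1, 121 CPM in IP2), Cox7b (142 and 106 CPM), Cox6a1 (118 and 110.3 CPM), Cox8a (102 and 90.5 CPM), Ndufa4 (94.8 and 82.5 CPM), Cox5a (76.0 and 52.2 CPM), Cox6b1 (73.1 and 64.5 CPM), Cox6c (69.4 and 59.3 CPM) and Cox7a2 (68.7 and 67.5 CPM). Ndufa4 was named as a complex I protein but is now counted with complex IV. Cox7a2l, which joins complexes III and IV into supercomplexes, was at 52.1 and 48.7 CPM. Cox5b (14.7 and 15.7 CPM) and Cox7c (3.74 and 4.03 CPM) had fewer reads. RefSeq lists a pseudogene named after each, and the part of such copies in these counts was not tested.

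Isoforms known from heart and skeletal muscle or from testis had few reads. The muscle forms Cox6a2, Cox7a1 and Cox8b had 267, 56 and 30 reads in IP1 and 304, 88 and 27 in IP2. Per 100 reads of its common partner, Cox6a2 had 3.48 in IP1 and 3.79 in IP2, Cox7a1 1.25 and 1.79, and Cox8b 0.45 and 0.41. The span of Cox6a2 overlaps that of the coding gene Itgad. The testis form Cox6b2 had 6.63 reads per 100 of Cox6b1 in IP1 and 5.63 in IP2. Cox7b2 had 42 reads in IP1 and 0 in IP2, or 15.6-fold more by CPM in IP1 when IP2 is set at the limit of 3 reads. That value leaves out the counting error of the 42 reads. Cox8c had 0 reads in both. These 6 isoforms summed to 10.9 CPM in IP1, against 9.39 CPM in IP2.

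In reads not divided by length, the hypoxia isoforms came closer to their partners than the other alternative isoforms did. Cox4i2 (chromosome 2, 152753916 to 152765039, mm10) had 4384 reads in IP1 (67.2 CPM) and 3646 in IP2 (50.1 CPM). Against Cox4i1 (chromosome 8, 120668225 to 120674209), it had 45.5 reads per 100 in IP1 and 41.5 in IP2, with exact 95% intervals of 43.9 to 47.2 for IP1 and 39.9 to 43.1 for IP2, and a mean of 43.5 ± 2.84 (SD, n = 2). Ndufa4l2 (chromosome 10, 127509274 to 127517154) had 4441 reads in IP1 (68.1 CPM) and 3792 in IP2 (52.1 CPM). Against Ndufa4 (chromosome 6, 11900372 to 11907450), it had 71.8 reads per 100 in IP1 (69.1 to 74.7) and 63.2 in IP2 (60.7 to 65.9), a mean of 67.5 ± 6.09 (SD, n = 2). These are ratios of reads and, without transcript lengths, not ratios of molecules. Between the libraries length cancels, and the ratio was 1.10-fold higher in IP1 for Cox4i2 and 1.14-fold higher for Ndufa4l2. The counting intervals of IP1 and IP2 did not overlap for either pair, but 2 libraries of 1 group give no test of that difference. The RefSeq span of Cox4i2 overlaps the coding gene Bcl2l1 and a noncoding gene, and that of Ndufa4l2 overlaps Shmt2, so the assignment of reads in shared stretches is uncertain.

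**Figure D2:**
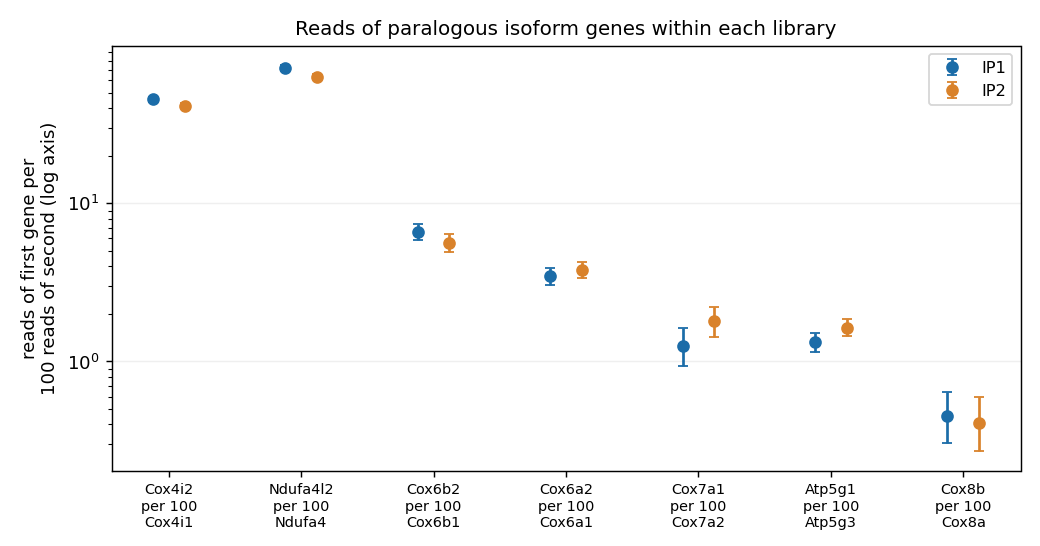
Reads of the first gene of each isoform pair per 100 reads of the second, on a log axis, for IP1 and IP2, with exact 95% intervals that cover counting error only. Cox4i2 and Ndufa4l2 lie between 41.5 and 71.8 reads per 100, while the other 5 pairs plotted lie at 6.63 or below.

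The 6 genes of the pericyte marker list went the other way from most chain genes between the libraries. That list does not hold Cox4i2, Ndufa4l2 or Higd1b, which are also known from brain pericytes. Both hypoxia isoforms were higher in IP1, with log2 ratios of IP1 over IP2 of 0.42 for Cox4i2 and 0.39 for Ndufa4l2. So were their partners Cox4i1 (0.29) and Ndufa4 (0.20), and 63 of the 73 chain genes compared, against 53.3% of all genes. This side was thus not particular to the isoforms. All 6 pericyte markers were higher in IP2, from Abcc9 (330.0 CPM in IP1, 571 CPM in IP2, log2 ratio -0.79) to P2ry14 (44.5 and 48.4 CPM, -0.12), with a median of -0.57. Of the 6 pan-mural markers, Tbx18 (0.44) and Rgs5 (0.25) were higher in IP1 and the other 4 in IP2. Higd1b, a homologue of a hypoxia-induced factor of complex IV that is known from brain pericytes, was higher in IP1 like the isoforms, with 241 CPM in IP1, against 164 CPM in IP2 (0.55). Higd1a, the broadly used family member, was at 159 and 121 CPM (0.39).

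Complex V consists of the catalytic F1 head, a peripheral stalk and a membrane part with the rotor ring. The head subunit Atp5b had 2409 CPM in IP1 and 2019 CPM in IP2. Its partner Atp5a1 was at 821 and 765 CPM, the central stalk subunits Atp5c1 at 371 and 250.1 CPM, Atp5d at 172 and 143 CPM and Atp5e at 70.7 and 57.0 CPM. The peripheral stalk genes were Atp5j (132 and 111 CPM), Atp5f1 (95.7 and 74.7 CPM), Atp5o (83.1 and 59.2 CPM) and Atp5h (40.4 and 35.6 CPM). Each of these 9 genes was higher in IP1, by a log2 ratio of 0.10 for Atp5a1 up to 0.57 for Atp5c1. Among all genes with a mean of 10 CPM or more, 53.3% were higher in IP1. Atp5s (33.6 and 31.4 CPM), now Dmac2l, is a related factor that is not a core subunit.

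The rotor ring is built from a single small protein that 3 genes, Atp5g1, Atp5g2 and Atp5g3, encode with different import sequences. Nearly all its assigned reads came from Atp5g3, with 15846 in IP1 (243 CPM) and 16103 in IP2 (221 CPM). Atp5g1 had 210 and 263 reads, or 1.33 and 1.63 per 100 of Atp5g3. Atp5g2 had 4 and 16 reads. Of the other membrane subunits, Atp5k was at 45.4 and 37.4 CPM and Atp5j2 at 38.9 and 29.1 CPM, while Atp5l had 6 reads in IP1 and 2 in IP2. RefSeq lists 16 pseudogenes named after genes of these families, among them 2 for Atp5l, 4 for Atp5k, 2 for Uqcrh and 1 for Atp5c1. Only RefSeq symbols that hold -ps were searched, so copies under other names were not counted. Low and high counts were both found among genes with copies so named, and the part of unassigned reads in the low values was not tested.

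Between the libraries, most chain genes were higher in IP1. Ratios were compared for genes whose mean CPM was 10 or more, and 73 members passed, the same 73 as above. Of these, 63 were higher in IP1 and 10 in IP2. Among all 9656 genes at that mean, 53.3% were higher in IP1. The median log2 ratio of IP1 over IP2 was 0.26 for the 73 genes, with quartiles of 0.10 and 0.39, and 0.03 for all genes, with quartiles of -0.20 and 0.23. The summed level of the 88 genes had a log2 ratio of 0.23, and 0.22 without Atp5b, so this single gene did not set the value. A 95% counting interval of the ratio lay wholly on the IP1 side for 58 of the 73, against 44.2% of all genes, and wholly on the IP2 side for 4, against 38.5%. With 2 libraries of 1 group there is no test of these ratios, and they describe the spread of the chain genes between replicates.

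The size of the difference was modest. Of the 73, 5 were at least 1.5-fold higher in IP1, against 4.42% of all genes, and 0 were at least 1.5-fold higher in IP2, against 6.57%. The share past 1.5-fold in IP1 was thus near that of all genes. The 5 were Ndufb2 (25.3 CPM in IP1, 13.98 CPM in IP2), Ndufa11 (25.5 and 14.8 CPM), Ndufaf1 (19.9 and 12.8 CPM), Ndufs8 and Ndufaf3. With library sizes scaled by the trimmed mean of M-values (TMM), the count was 2 of 73, Ndufb2 and Ndufa11, against 3.4% of all genes under that scaling.

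By complex, all 7 compared genes of complex III and all 13 of complex V were higher in IP1. So were 12 of 13 of complex IV and 27 of 33 of complex I, against 53.3% of all genes compared. Median log2 ratios were 0.40 for complex III, 0.27 for complex V, 0.25 for complex I and 0.20 for complex IV. The assembly factors of complex I differed among themselves. Of 7 compared, 4 were higher in IP1, from Ndufaf4 (log2 ratio 0.04) to Ndufaf1 (0.63), and Ndufaf2 (-0.39), Ndufaf5 (-0.20) and Ndufaf7 (-0.07) were higher in IP2. Their median was 0.04, and -0.02 with TMM scaling. Other members higher in IP2 included Ndufa3, Ndufa9, Ndufs3, Ndufa13, Ndufc2 and Cox5b, all within 0.11 on the log2 scale.

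**Figure D3:**
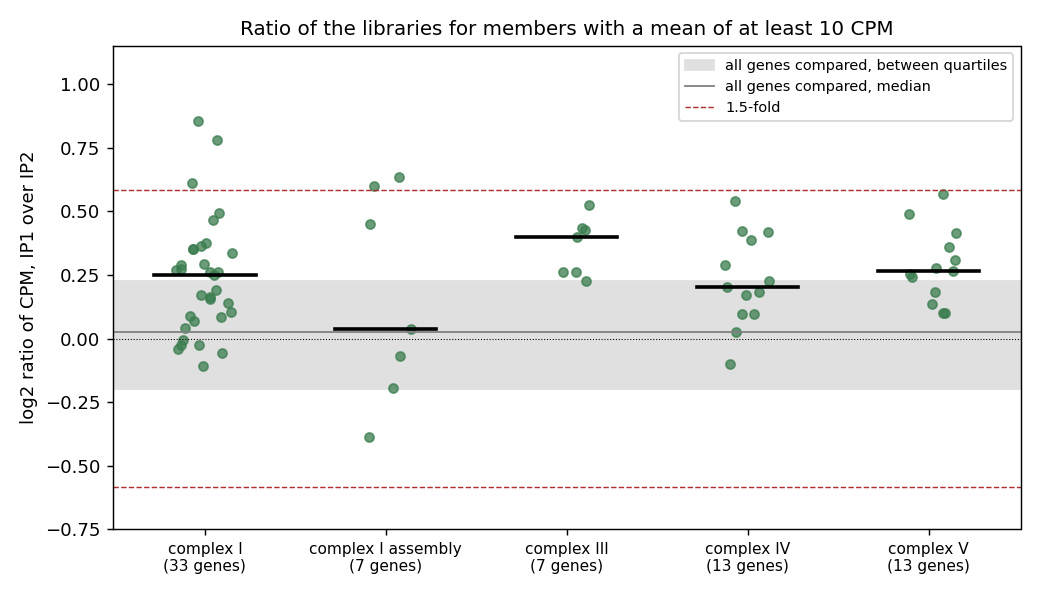
Log2 ratio of CPM in IP1 over IP2 for the 73 genes whose mean CPM was 10 or more, by complex, with each group's median as a black bar. The grey band lies between the quartiles of all 9656 genes at that mean, the grey line is their median, and the dashed lines are 1.5-fold. Complexes III and V lie wholly above 0, and the assembly factors spread to both sides with a median of 0.04.

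Marker genes of several cell types also differed between the libraries. Median log2 ratios of IP1 over IP2 were -0.83 for astrocyte markers (1 of 5 compared higher in IP1), -0.54 for pan-mural markers (2 of 6), -0.45 for fibroblast markers (0 of 4), -0.24 for oligodendrocyte markers (1 of 4), -0.05 for pan-neuronal markers (2 of 6) and 0.02 for oligodendrocyte precursor markers (2 of 4). Arterial smooth muscle markers had a median of -0.01 (1 of 4), and the only endothelial and microglial markers with a mean of 10 CPM were Flt1 (-0.28) and Tmem119 (-0.52). Summed levels were higher in IP1, against the sign of the median, for pan-mural markers (5288 CPM in IP1, 4661 CPM in IP2, of which Rgs5 had 4841 and 4061 CPM), smooth muscle markers (643 and 578 CPM) and pan-neuronal markers. They were higher in IP2, also against the sign of the median, for oligodendrocyte precursor markers (2007 CPM in IP1, 2233 CPM in IP2), and with it for fibroblast markers (1987 CPM in IP1, 2781 CPM in IP2). Medians of these 10 marker lists were below that of the chain genes, but the lists are short. The endothelial and microglial lists rest on 1 compared gene each. Summed levels had log2 ratios of 0.19 for pan-neuronal, 0.18 for pan-mural and 0.15 for smooth muscle markers, against 0.23 for the chain genes. Those of the other lists were below 0. The part of cell composition in the ratio of the chain genes was not tested.

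Genes of the chain outside the symbol rule were compared in the same way. The counts below stand against 53.3% of all 9656 compared genes higher in IP1, and the lists are short. Complex II, which has only nuclear subunits, had Sdha (326 CPM in IP1, 266 CPM in IP2), Sdhc (167 and 142 CPM), Sdhd (133 and 136 CPM) and Sdhb (63.5 and 49.9 CPM), and 3 of the 4 were higher in IP1. Cyc1, the cytochrome of complex III, was at 101 and 97.0 CPM. Cytochrome c itself, Cycs, had 394 reads in IP1 and 747 in IP2 (6.04 and 10.3 CPM), with 3 and 1 reads for its testis form Cyct. Of 15 compared genes for complex IV assembly and regulation, 11 were higher in IP1 and 4 in IP2. The range ran from Taco1 (10.4 and 13.4 CPM, log2 ratio -0.38) to Surf1 (24.3 and 13.6 CPM, 0.84), a factor mutated in Leigh syndrome. Sco2, a copper chaperone of complex IV, had 0 reads in both libraries. Of 5 compared genes of the ATP synthase list outside the rule, 2 were higher in IP1, with a median log2 ratio of -0.04. On the IP1 side were 2010107E04Rik (61.4 CPM in IP1, 39.9 CPM in IP2, log2 ratio 0.62) and the ATP synthase inhibitor Atpif1 (79.5 and 61.6 CPM, 0.37). On the IP2 side were the assembly factor Tmem70 (18.5 CPM in IP1, 29.8 CPM in IP2, log2 ratio -0.69), 1110001J03Rik (-0.09) and Atpaf2 (-0.04). Usmg5 had 53 reads in IP1 and 34 in IP2 and was not compared. The 13 subunits from mitochondrial DNA were not analysed here.

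The spans of the members also show how separable their reads were. All 88 symbols matched a single RefSeq gene (GRCm38.p6, the mm10 assembly), and 59 overlapped no other RefSeq gene. Of the 29 that did, 15 overlapped a coding gene, such as Atp5j with Gabpa and Cox7a2 with Tmem30a. Among the compared members that overlapped none, 42 of 47 were higher in IP1, with the same median log2 ratio of 0.26 as before.

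Promoter sequences were read for members after most of them were seen on the same side. A link of motifs to the ratio between the libraries was not tested. RefSeq windows (GRCm38.p6) were at hand for 73 members, with 79 start sites, and the 250 bases before each start were searched on both strands. The windows of the hypoxia isoforms Cox4i2 and Ndufa4l2, and of Cox4i1, were not analysed here. The core CATGCGC of NRF1, a regulator of respiratory genes, was found in 10 of the 79 windows (12.7%), against 3.24% of all 32851 windows and 3.97% of the 21263 windows of coding genes. The ETS core CCGGAA, which GABPA binds, was in 21 (26.6%), against 12.03% of all and 14.998% of coding windows. For ACGTG, the core of the hypoxia response element, these were 18 (22.8%), 16.6% and 17.8%, for the SP1 box GGGCGG 29 (36.7%), 32.7% and 42.6%, and for AAGATGG of YY1 2 (2.53%), 4.49% and 4.13%. None of the 5 motifs contains another. Median GC content was 56.4% for members, 52.4% for all and 55.6% for coding windows. A match is a stretch of letters and not a measured site.

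The 10 NRF1 matches are shown on the strand of the gene with 12 bases on either side where the window allows, and capitals mark the core. In 5 of them the core is met on both strands and makes a run of 10 capitals. Of the 8 carriers with a mean of 10 CPM or more, 7 were higher in IP1, against 63 of 73 over all members compared, and Cox5b was not. The other carriers, Atp5g2 and Atp5l, had 16 reads or fewer in each library.

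Atp5g2: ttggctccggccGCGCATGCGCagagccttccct
Atp5k: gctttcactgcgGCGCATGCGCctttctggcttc
Atp5l: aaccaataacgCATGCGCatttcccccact
Cox5b: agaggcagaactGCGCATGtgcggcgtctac
Cox6a1: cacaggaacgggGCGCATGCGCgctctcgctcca
Ndufa11: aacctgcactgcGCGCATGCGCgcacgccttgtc
Ndufa6: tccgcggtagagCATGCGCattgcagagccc
Ndufa8: tcgctggagacgCATGCGC
Ndufaf4: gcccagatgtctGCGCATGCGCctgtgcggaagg
Ndufb6: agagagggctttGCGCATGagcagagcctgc

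The windows of the 2 members furthest to the IP1 side follow. That of Ndufb2 (chr6:39592315-39592564, plus strand) held none of the 5 motifs, and that of Ndufa11 (chr17:56717512-56717761, plus strand) held the NRF1 core, in capitals, 51 to 60 bases before the start and none of the other 4. Of the other 3 members past 1.5-fold, Ndufs8 held none of the motifs, Ndufaf1 held the SP1 box and the ETS core, and Ndufaf3 the SP1 box and the hypoxia core. An absent match says only that those letters are not in the window.

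Ndufb2: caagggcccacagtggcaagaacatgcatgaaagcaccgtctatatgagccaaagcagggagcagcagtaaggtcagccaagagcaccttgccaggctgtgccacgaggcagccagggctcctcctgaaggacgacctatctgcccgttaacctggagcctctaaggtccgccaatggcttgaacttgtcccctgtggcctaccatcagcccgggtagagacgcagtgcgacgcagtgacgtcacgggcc
Ndufa11: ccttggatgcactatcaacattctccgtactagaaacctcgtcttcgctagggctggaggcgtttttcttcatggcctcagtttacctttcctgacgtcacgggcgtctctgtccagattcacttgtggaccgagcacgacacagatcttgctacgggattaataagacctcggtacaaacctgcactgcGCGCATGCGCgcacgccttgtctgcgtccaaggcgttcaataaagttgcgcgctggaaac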

How the data were processed

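Each deposited file holds raw read counts per gene symbol for 1 library, with no normalization. The authors used STAR 2.0.0e, HTSeq and the mm10 build, per the submitters' processing notes. Annotation, strand and overlap settings are not given in the sources used for this work, so reads of overlapping or antisense genes cannot be told apart. Summary rows and a row named unknown (1 read in IP1, 0 in IP2) were left out of totals. Reads in genes were 58.1% of listed reads in IP1 and 57.7% in IP2. Without molecular identifiers, reads are not independent molecules.

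Counts were divided by the total of gene counts and given per 1000000 (CPM). Ratios are log2 of IP1 over IP2, without a pseudocount, for genes whose mean CPM was 10 or more with a read in each library. Intervals are exact Clopper-Pearson at 95%. With 1 group of 2 libraries no p-value was computed. Alternatives were TMM (edgeR 4.0.16), DESeq2 1.42.0 size factors, totals without Rn45s, other filters and folds, and each library alone. Ratios per kilobase had been planned, but transcript lengths were not at hand, so reads of paralogs are given without length. The rule for genes named with values took isoform pairs, the 4 members of each complex highest per kilobase, members without a read and members past 1.5-fold. Since no lengths were at hand, mean CPM replaced the ranking per kilobase, and the further members named, the promoter motifs and the ratios of reads were chosen after values were seen. Members and lists were chosen with earlier results of these data known. Computation used R 4.3.3, Python 3.11.15, numpy 2.4.6, pandas 2.3.3, scipy 1.17.1 and matplotlib 3.10.9. The values of 1 member, which stays in all sums and counts, are not reported here.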

Additional observations from a re-analysis of the deposited data

How the results depend on the processing

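The number of members at least 1.5-fold higher in IP1 changed with the setting. It was 5 of 73, against 4.42% of all genes. It was 2 of 73 with TMM scaling (3.4% of all genes), 2 of 73 with DESeq2 size factors (3.32%), 8 of 83 where the mean CPM was 1 or more (10.8%), 9 of 86 with no filter beyond 1 read in each library (17.2%), and 0 of 73 at a fold of 2 (0.549%). Members at least 1.5-fold higher in IP2 numbered 0 in the settings run, except for 1 of 86 (Atp5g2, 4 and 16 reads) with no filter, against 13.7% of all genes. In the other settings the share of all genes was 8.01% with TMM, 8.05% with DESeq2 size factors and 6.74% with totals without Rn45s. It was 10.1% where the mean CPM was 1 or more and 0.973% at a fold of 2. The median log2 ratio of 0.26 was 0.21 with TMM, 0.21 with DESeq2 size factors and 0.25 with a mean of at least 1 CPM, and stayed above 0 throughout. TMM lowered every log2 ratio by the same amount, so members higher in IP1 numbered 60 of 73, against 46.3% of all genes. The number of members at 10 CPM was 73 in each library alone and under all 3 other scalings. No paired analysis was possible because there is a single group. The log2 ratios of Cox4i2 and Ndufa4l2 per kilobase were not run for want of lengths. The alternatives for the number of members higher in IP1 at any fold, for members that overlap no other gene and for the isoform ratios in each library were chosen after seeing the data. Low counts limit the ratios of Atp5l, Atp5g2, Cox7b2 and Cox8b, which rest on under 50 reads a library.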

Other observations

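Regulators of mitochondrial gene expression were counted in both libraries. Ppargc1a, a coactivator that promotes mitochondrial biogenesis, had 253 CPM in IP1 and 204 CPM in IP2, while its relative Ppargc1b had 10.6 and 18.0 CPM. Gabpa (275 and 288 CPM) and Nrf1 (42.9 and 46.2 CPM), factors that act on respiratory chain promoters, were higher in IP2, by at most 0.11 on the log2 scale, and Tfam (57.3 and 48.2 CPM), which packages mitochondrial DNA, was higher in IP1. The oxygen-regulated factors Hif1a (157 and 131 CPM) and Epas1 (1150.0 and 1199 CPM) lay on opposite sides. Of the 8 regulators with a mean of 10 CPM or more, 3 were higher in IP1, against 53.3% of all genes at that mean.

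Among genes for assembly of complex III, Lyrm7, which binds the iron-sulfur protein Uqcrfs1, had 897 reads in IP1 and 282 in IP2 (log2 ratio 1.83). It had a mean below 10 CPM and so was not among the genes compared. Lyrm7 is named as the gene of this list of 6 furthest to the IP1 side. The 2 genes of the list that were compared, Ttc19 and Uqcc1, had log2 ratios of 0.15 and 0.50. Uqcrfs1 had a log2 ratio of 0.40.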
